A study of Mus musculus with 16 samples.

Results

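The genes described here are 10 transcripts that in the spleen are associated with resident macrophages: the C1q chains C1qa, C1qb and C1qc, together with Vcam1, Slc40a1, Cd5l, Spic, Hmox1, Adgre1 and Axl. They are 10 of the 24421 gene symbols counted, and they were selected on their measured levels in these same libraries, so their own values, fold changes and counts are given as a description and carry no test. The measurements are QuantSeq 3′ mRNA counts from monocytic (M-MDSCs) and granulocytic (G-MDSCs) myeloid-derived suppressor cells sorted from the spleens of C57BL/6 mice bearing subcutaneous B16.F10 melanomas, a transplantable mouse melanoma line that all 4 groups carry. Each group has 4 libraries: wild-type (WT) M-MDSCs, Nlrp3-/- M-MDSCs, WT G-MDSCs and Nlrp3-/- G-MDSCs, each library being 1 mouse, and the 8 mice each gave both subsets. The Nlrp3-/- allele, present in every cell of the animal, carries an EGFP cassette fused in frame at the ATG of exon 2, and the series asks what loss of the NLRP3 inflammasome sensor does to these cells. By the default of the study's methods, mice were 6 to 12 weeks old, with genotypes matched for age and sex.

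Red pulp macrophages of the spleen take up aged red blood cells, break down their heme and return the iron to the circulation. Spi-C, encoded by Spic, is a transcription factor these cells need, VCAM1 is an adhesion molecule on their surface, ferroportin (Slc40a1) exports iron, and heme oxygenase 1 (Hmox1) opens the heme ring. C1q is the recognition molecule of the classical complement pathway and is assembled from equal parts of the C1QA, C1QB and C1QC chains, which tissue macrophages make in large amounts.

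The C1q genes lie side by side on the minus strand of chromosome 4, in the order C1qb, C1qc, C1qa, over 18.7 kb (chr4:136880129-136898803, mm10). The other 7 are spread over chromosomes 1 (Slc40a1), 3 (Vcam1 and Cd5l), 7 (Axl), 8 (Hmox1), 10 (Spic) and 17 (Adgre1). RefSeq promoter windows of 300 bases (GRCm38.p6, 250 before to 50 after the start site) were at hand for 5 of the 10 genes, C1qb, C1qc, Cd5l, Spic and Axl. The windows of C1qb, C1qc and Cd5l are printed, and those of Axl and Spic are not. Each printed gene was in at least 1 of the most closely correlated pairs described below, but so was Axl. With each other the printed genes moved less closely (Pearson r 0.29 to 0.49). Capitals mark GAGGAA, a core that ETS factors such as PU.1 and Spi-C read, and TGCTGA, a part of the site that MAF factors read, each searched on both strands, so that TTCCTC and TCAGCA are the same letters on the other strand.
C1qb promoter, chr4:136886151-136886450, minus strand: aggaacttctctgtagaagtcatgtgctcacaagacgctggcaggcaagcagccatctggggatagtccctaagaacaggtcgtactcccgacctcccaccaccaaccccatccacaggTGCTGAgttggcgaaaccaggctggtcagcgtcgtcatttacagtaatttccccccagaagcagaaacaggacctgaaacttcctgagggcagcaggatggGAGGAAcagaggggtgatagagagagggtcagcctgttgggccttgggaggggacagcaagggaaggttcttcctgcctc
C1qc promoter, chr4:136892865-136893164, minus strand: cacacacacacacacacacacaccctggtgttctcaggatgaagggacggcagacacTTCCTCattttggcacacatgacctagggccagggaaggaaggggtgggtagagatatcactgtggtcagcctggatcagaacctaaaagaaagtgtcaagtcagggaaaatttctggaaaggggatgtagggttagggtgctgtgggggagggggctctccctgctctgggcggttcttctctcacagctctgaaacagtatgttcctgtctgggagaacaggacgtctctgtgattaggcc
Cd5l promoter, chr3:87357631-87357930, plus strand: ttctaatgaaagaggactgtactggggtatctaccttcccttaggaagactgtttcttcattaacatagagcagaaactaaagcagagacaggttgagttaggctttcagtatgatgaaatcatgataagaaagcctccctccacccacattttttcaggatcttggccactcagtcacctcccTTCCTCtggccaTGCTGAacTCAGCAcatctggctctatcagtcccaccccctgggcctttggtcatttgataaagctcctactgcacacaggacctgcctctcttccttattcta
GAGGAA was present in 4 of the 5 windows, those of C1qb, C1qc, Cd5l and Axl, against 28.3% of all 32817 promoters of the same length. TGCTGA was present in 3 of 5, C1qb, Cd5l and Spic, against 19.5% of all, and in Cd5l it stood on both strands, at -54 and -46 from the start site. The full AP-1 core TGACTCA was in none of the 5 and in 5.2% of all promoters. With 5 windows these are descriptions of letters, and no occupancy was measured.

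The libraries hold 2295967 to 6079866 counts. Levels are in CPM (counts scaled to a common library total, here with TMM factors over all 16 libraries), in which a count of 3 corresponds to 0.493 to 1.31. The 10 genes had between 9 and 2957 counts in a library, and all 10 passed the filter on low counts in every comparison. Nlrp3 itself was at 40.7, 88.9, 53.2 and 79.8 CPM in WT M-MDSCs and at 0.698, 1.88, 0.835 and 0.514 CPM in Nlrp3-/- M-MDSCs, with 252 to 331 CPM in WT and 5.51 to 13.6 CPM in Nlrp3-/- G-MDSCs. The tags counted by this method come from the 3′ end of the transcript, downstream of the inserted cassette and its poly(A) signal, and no Nlrp3-/- library reached the WT range of its subset. The neutrophil list (S100a8, S100a9, Csf3r and others, 13 of 14 listed genes counted, Ly6g not analysed here) summed to 117181 to 177640 CPM in G-MDSCs and to 1522 to 2619 CPM in M-MDSCs, apart from WT M-MDSC replicate 2 at 9006 CPM. The monocyte list (Ly6c2, Ccr2, Csf1r and others) summed to 7035 to 10681 CPM in M-MDSCs and to 933 to 1557 CPM in G-MDSCs. Each sorted subset carried its own markers. Per the study's methods the gate for both was high CD11b, with Ly6C or Ly6G telling them apart. No library pair was identical.

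The C1q chains were higher in Nlrp3-/- cells of both subsets. C1qa was at 7.25, 6.33, 8.38 and 6.51 CPM in the 4 WT M-MDSC libraries and at 31.6, 46.1, 34.7 and 40.5 CPM in the 4 Nlrp3-/- M-MDSC libraries. In G-MDSCs C1qa was at 59.4, 19.0, 13.3 and 23.0 CPM in WT and at 82.5, 92.6, 76.5 and 109 CPM in Nlrp3-/- mice. The groups did not overlap in either subset, although WT G-MDSC replicate 1 stood well above the other WT G-MDSC libraries. C1qb was at 13.7, 6.33, 8.92 and 7.20 CPM in WT against 29.0, 47.6, 20.5 and 40.3 CPM in Nlrp3-/- M-MDSCs, and at 43.1, 12.5, 17.2 and 23.0 against 62.1, 80.0, 56.8 and 66.1 CPM in G-MDSCs. C1qc was at 6.50, 8.58, 6.78 and 5.83 CPM in WT against 35.8, 25.2, 11.1 and 33.9 CPM in Nlrp3-/- M-MDSCs, and at 19.4, 14.6, 13.8 and 23.7 against 80.9, 69.9, 54.1 and 80.3 CPM in G-MDSCs. Neither chain had a WT library as high as the lowest Nlrp3-/- library of its subset. The log2 fold changes (edgeR fit, SE) were 2.44 (0.20), 1.94 (0.31) and 1.96 (0.35) for C1qa, C1qb and C1qc in M-MDSCs and 1.58 (0.35), 1.39 (0.30) and 1.92 (0.23) in G-MDSCs. Without WT G-MDSC replicate 1 the C1qa estimate in G-MDSCs was 2.21. In these bulk libraries, more cells of a type that carries a transcript and more of that transcript per cell cannot be told apart.

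**Figure D1:**
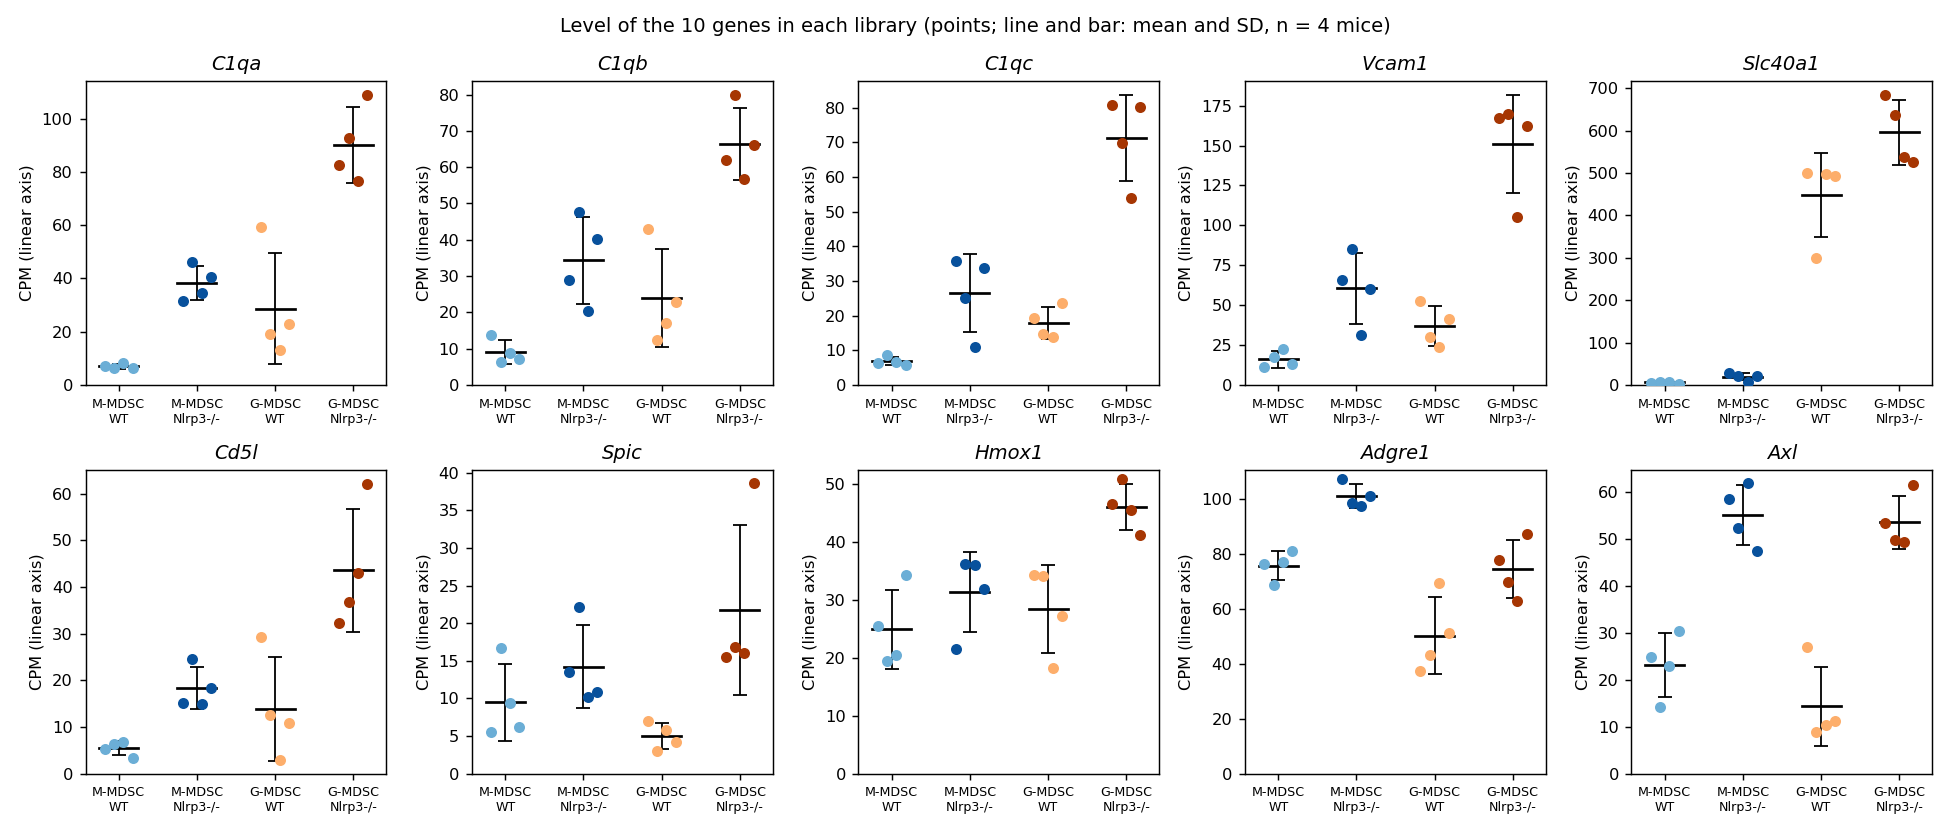
Level of each of the 10 genes in CPM (linear axes that start at 0) in the 16 libraries, by subset and genotype; points are libraries, lines and bars the mean and SD of 4 mice. C1qa, C1qb, C1qc, Vcam1, Cd5l and Axl show no overlap between genotypes in either subset, while Slc40a1 is set mainly by the subset, with 299 to 683 CPM in G-MDSCs and 3.08 to 27.8 CPM in M-MDSCs.

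The 3 chains had similar shares on average and unequal ones in single libraries. Of the 57 to 982 C1q counts in a library, C1qa took 37.2% on average (26.4 to 52.4% over 16 libraries), C1qb 33.8% (25.8 to 50%) and C1qc 29.0% (15.9 to 40.4%). In Nlrp3-/- G-MDSCs, which had the most C1q CPM, the shares were 39.6 ± 2.75%, 29.2 ± 3.15% and 31.2 ± 3.33% (SD, n = 4). With this method a transcript gives about 1 tag whatever its length, so that the chains can be set side by side. The widest gaps were in Nlrp3-/- M-MDSC replicate 3, with 52.4, 30.9 and 16.7% for C1qa, C1qb and C1qc, and in WT G-MDSC replicate 1, with 48.8, 35.3 and 15.9%. The share of each chain overlapped between genotypes in both subsets.

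The genes on either side of the cluster were not selected, and their test is independent of the rule. Kdm1a, which encodes a histone demethylase and lies on the C1qb side (chr4:136550540-136602723), fell in Nlrp3-/- M-MDSCs with a log2 fold change of -1.20 (SE 0.23, edgeR quasi-likelihood test, Benjamini-Hochberg adjusted p = 0.00832). In G-MDSCs it fell by 0.86 (SE 0.24, edgeR adjusted p = 0.0242), a call that was lost without WT replicate 2 (-0.66, edgeR adjusted p = 0.082), Nlrp3-/- replicate 3 (-0.88, edgeR adjusted p = 0.0518) or Nlrp3-/- replicate 4 (-0.75, edgeR adjusted p = 0.0755). Zbtb40, on the C1qa side, had a log2 fold change of 0.78 in M-MDSCs (edgeR adjusted p = 0.113) and was too low to be tested in G-MDSCs. Lactbl1, Epha8 and Gm13003 had 0 counts in all 16 libraries and Ephb2 at most 1, so no flanking gene passed the test upward.

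Adhesion and receptor genes followed. Vcam1 was at 11.1, 17.3, 22.8 and 13 CPM in WT against 65.6, 85.5, 31.3 and 60 CPM in Nlrp3-/- M-MDSCs, and at 52.8, 30.1, 24 and 41.3 against 167, 170, 105 and 162 CPM in G-MDSCs. The lowest Nlrp3-/- library was replicate 3 in both subsets, that is the same mouse, and it still lay above every WT library. Axl, a receptor tyrosine kinase that binds apoptotic cells through GAS6, was at 24.9, 14.2, 23.0 and 30.5 CPM in WT against 58.5, 52.4, 62.0 and 47.5 CPM in Nlrp3-/- M-MDSCs, and at 27.0, 8.80, 10.4 and 11.3 against 53.4, 49.9, 49.5 and 61.6 CPM in G-MDSCs. Its Nlrp3-/- levels were close in the 2 subsets, 55.1 ± 6.44 and 53.6 ± 5.63 CPM (SD, n = 4). The log2 fold changes were 1.93 (SE 0.31) and 1.95 (SE 0.24) for Vcam1 and 1.29 (SE 0.22) and 1.82 (SE 0.30) for Axl, in M- and G-MDSCs. Adgre1, which encodes the macrophage surface protein F4/80, differed less. It was at 76.2, 68.5, 76.9 and 80.9 CPM in WT against 107, 98.4, 97.5 and 101 CPM in Nlrp3-/- M-MDSCs, groups that did not overlap at a log2 fold change of 0.45 (SE 0.14). In G-MDSCs it was at 37.4, 43.0, 69.3 and 51.0 against 77.6, 69.6, 62.8 and 87.3 CPM (log2 fold change 0.47, SE 0.21), where WT replicate 3 lay above Nlrp3-/- replicate 3. Monocytes make Adgre1 too.

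The iron and heme genes were less alike. Slc40a1 was at 5.76, 7.59, 7.67 and 3.08 CPM in WT against 27.8, 21.2, 7.94 and 21.3 CPM in Nlrp3-/- M-MDSCs, where replicate 3 of the Nlrp3-/- mice lay just above the WT range. In G-MDSCs it was at 501, 299, 497 and 492 against 683, 636, 539 and 525 CPM. The log2 fold change was 1.70 (SE 0.39) in M-MDSCs and 0.33 (SE 0.18) in G-MDSCs. Hmox1 was at 25.6, 19.4, 20.5 and 34.3 CPM in WT against 21.5, 36.3, 36.1 and 31.9 CPM in Nlrp3-/- M-MDSCs (log2 fold change 0.36, SE 0.23), overlapping groups. In G-MDSCs it was at 34.4, 34.2, 18.2 and 27.2 against 46.7, 50.9, 45.6 and 41.2 CPM (0.61, SE 0.23), groups that stood apart.

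Cd5l, a secreted scavenger-family protein of tissue macrophages, was at 5.39, 6.47, 6.78 and 3.43 CPM in WT against 15.2, 24.7, 15.0 and 18.4 CPM in Nlrp3-/- M-MDSCs. In G-MDSCs it ranged from 2.91 CPM (replicate 3) to 29.4 CPM (replicate 1) among the WT libraries, with 12.5 and 10.9 CPM in the others, against 32.3, 36.8, 43.1 and 62.2 CPM in Nlrp3-/- mice. The log2 fold changes were 1.72 (SE 0.27) and 1.58 (SE 0.46). Spic was at 5.57, 16.7, 9.45 and 6.17 CPM in WT against 13.5, 22.2, 10.2 and 10.9 CPM in Nlrp3-/- M-MDSCs (log2 fold change 0.58, SE 0.37), groups that overlapped through WT replicate 2. In G-MDSCs it was at 7.01, 3.05, 5.82 and 4.28 against 15.5, 16.8, 16 and 38.6 CPM (2.00, SE 0.38), without overlap, and the estimate was 1.59 without Nlrp3-/- replicate 4.

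Counted by the thresholds of the study (adjusted p under 0.05 and a fold change above 1.5, edgeR's quasi-likelihood test), 7 of the 10 genes were called higher in Nlrp3-/- M-MDSCs, where 3.51% of the 9986 tested genes were, and none was among the 7.10% called lower. In G-MDSCs 7 of 10 were called higher, with 4.70% of the 9273 tested genes called higher and 11.7% lower. All 4 Nlrp3-/- libraries lay above all 4 WT libraries for 8 of 10 genes in M-MDSCs (7.59% of all tested genes) and for 9 of 10 in G-MDSCs (12.0%). The median log2 fold change of the 10 was 1.71 in M-MDSCs and 1.58 in G-MDSCs, and that of all tested genes 0.07 and 0.03. Because the genes were picked on this contrast, nothing is read from these counts. The call on 6 genes (the 3 C1q chains, Vcam1, Cd5l and Axl) was shared, with Slc40a1 added in M-MDSCs and Spic in G-MDSCs. Slc40a1 was not called in M-MDSCs without WT replicate 4 (1.52) or without Nlrp3-/- replicate 4 (1.62). In G-MDSCs Cd5l was not called without WT replicate 2 (1.55) or 4 (1.49) or without Nlrp3-/- replicate 2 (1.65), 3 (1.58) or 4 (1.37), while Adgre1 was called only without WT replicate 3 (0.70). A correction of each library for GC content and transcript length moved the C1qa, C1qb and C1qc estimates in G-MDSCs to 1.16, 1.00 and 1.51 and that of Vcam1 to 2.37. It also brought Slc40a1 to 0.71 and a call in G-MDSCs and ended the call on Cd5l (1.40).

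**Figure D2:**
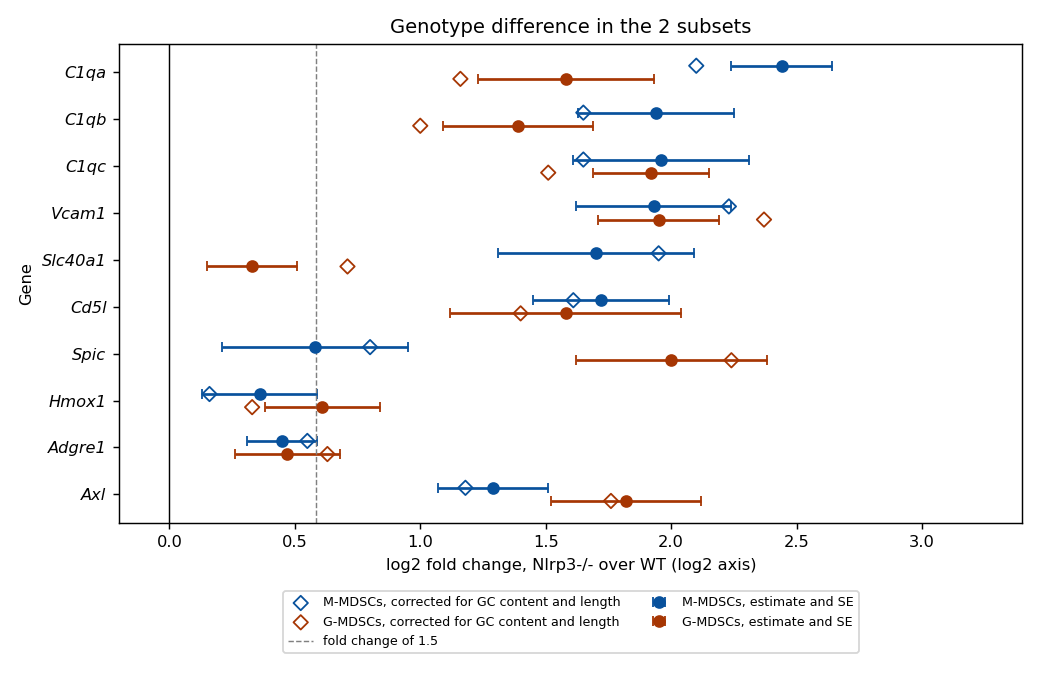
Log2 fold change of Nlrp3-/- over WT for each of the 10 genes in M-MDSCs and G-MDSCs; filled points and bars are the edgeR estimate and its SE from 4 against 4 libraries, open diamonds the estimate after a correction for GC content and transcript length, and the dashed line a fold change of 1.5. All 10 estimates are above 0 in both subsets, from 0.33 to 2.44, with Slc40a1 and Spic the genes that differ between the subsets by more than 1.

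The genotype difference itself was compared between subsets as the G-MDSC minus the M-MDSC log2 fold change. It was -1.24 (SE 0.40) for Slc40a1 and 1.53 (SE 0.57) for Spic, and -0.76 (SE 0.45) for C1qa. The others lay between -0.45 (C1qb, SE 0.47) and 0.64 (Axl, SE 0.40), within about 1 to 2 SE of 0. Over all genes this interaction passed an adjusted p of 0.05 for 3 of 10696 (0.0280%), which were Adgrg5, Gdpd3 and Pisd-ps1.

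Within a mouse and with TMM scaling, the 5 genes C1qa, C1qb, C1qc, Vcam1 and Slc40a1 were higher in G-MDSCs than in M-MDSCs. This held in 4 of 4 WT and 4 of 4 Nlrp3-/- mice, with Vcam1 in WT replicate 3 at a ratio of only 1.05. The share of all tested genes that were higher in every mouse was not counted, so nothing is read from the number of such genes. Slc40a1 stood alone in size, with 39.4 to 159 times the M-MDSC level in WT and 24.6 to 67.9 times in Nlrp3-/- mice. C1qa was 1.59 to 8.20 times higher in WT and 2.01 to 2.70 times higher in Nlrp3-/- mice. Adgre1 went the other way in 8 of 8 mice, at 0.491 to 0.901 of the M-MDSC level in WT and 0.644 to 0.867 in Nlrp3-/- mice. Spic was lower in G-MDSCs in 3 of 4 WT mice and higher in 3 of 4 Nlrp3-/- mice. Of the 10, 5 were called higher and 1 lower (Adgre1) in WT G-MDSCs, with 26.3% of all tested genes higher and 27.1% lower. With the mouse as a block, Axl was also called lower, 2 in all. In Nlrp3-/- mice 6 were called higher and none lower, with 23.7% and 27.4% of all genes. These ratios depend on the scaling, the TMM factors running from 1.201 to 1.459 in M-MDSCs and from 0.7222 to 0.8043 in G-MDSCs. With plain library totals in place of TMM factors, the median of all genes shifted by -0.74 in WT and -0.71 in Nlrp3-/- mice, and 2 and 1 of the 10 were then called higher, with Slc40a1 still at log2 fold changes of 5.42 and 4.06 and C1qb at 0.64 and 0.11. Hmox1 in both genotypes and Spic in Nlrp3-/- mice changed sign under that scaling, to -0.55, -0.27 and -0.25.

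**Figure D3:**
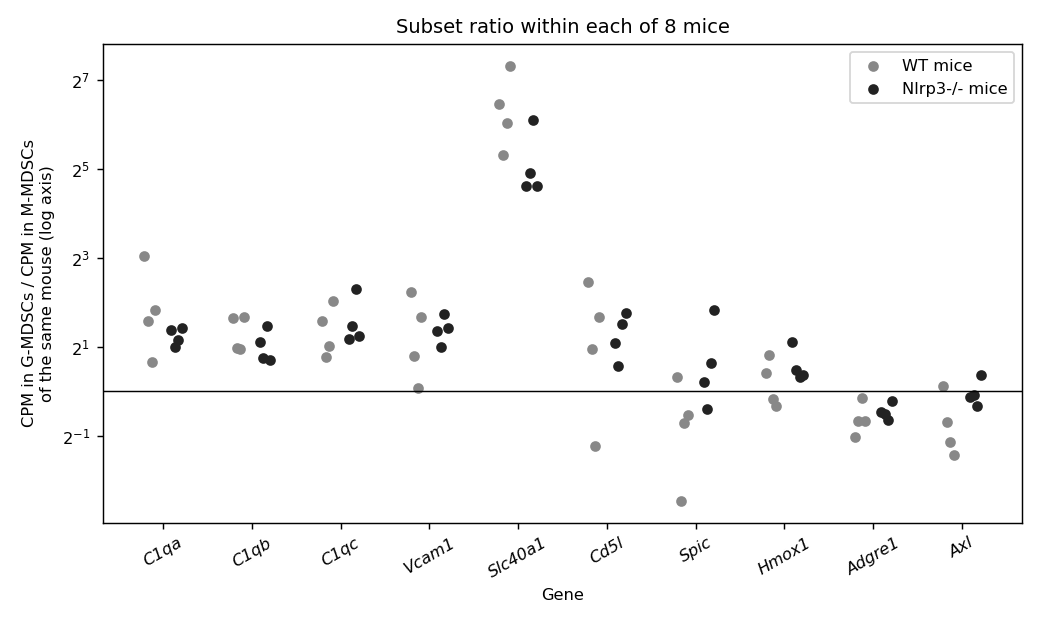
Ratio of the CPM in G-MDSCs to the CPM in M-MDSCs of the same mouse (log axis, 1 point per mouse, 4 WT and 4 Nlrp3-/- mice) for each of the 10 genes. Slc40a1 lies between 24.6 and 159, the C1q chains between 1.59 and 8.20, and Adgre1 below 1 in all 8 mice.

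Whether the genes rose together was read from each library's deviation from its own group mean in log2 CPM, which removes the subset and genotype levels. Over the 45 pairs of the 10 genes the median Pearson r was 0.29 across 16 libraries (range -0.74 to 0.86, 33 pairs positive), beside a median of 0.00 over all pairs of tested genes. It was 0.17 over the 8 M-MDSC libraries and 0.41 over the 8 G-MDSC libraries. The points share libraries and their depth, and deviations are forced to sum to 0 within each group, so r is given as a description. The strongest pairs were C1qa with Cd5l (0.86), C1qc with Slc40a1 (0.79), C1qa with C1qb (0.74), C1qc with Vcam1 (0.73) and C1qa with Axl (0.72). C1qa and C1qc, from the same cluster, had an r of 0.25. Adgre1 and Hmox1 stood outside, with mean r of -0.26 and -0.05 with the other genes, and Cd5l with Adgre1 gave the lowest value (-0.74).

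The shared movement sat in a few libraries. WT G-MDSC replicate 1 was the highest of its group for 8 of 10 genes, with a mean deviation of 0.61, and the lowest for Adgre1. Nlrp3-/- M-MDSC replicate 3 was the lowest of its group for 7 genes (mean deviation -0.42), and Nlrp3-/- G-MDSC replicate 3, from the same mouse, for 6 (-0.21). Nlrp3-/- M-MDSC replicate 2 was highest for 6 genes (0.30) and Nlrp3-/- G-MDSC replicate 4 for 5 (0.22). In the mouse of Nlrp3-/- replicate 3 the erythroid list (17 genes counted, its 4 globin genes listed at 0 everywhere) summed to 171 CPM in M-MDSCs and 416 CPM in G-MDSCs, against 43.0 to 49.6 and 85.7 to 112 CPM in the other Nlrp3-/- libraries. The WT G-MDSC libraries were mixed. Replicate 2 had the highest erythroid sum of its group, 707 CPM, with a mean deviation of -0.29 and 4 of the 10 genes lowest. Replicate 4 had 413 CPM and a mean deviation of 0.06. Replicate 1, where the 10 genes were high, had 321 CPM. Replicate 3 had 74.4 CPM, the lowest of the group, with a mean deviation of -0.37 and 5 of the genes lowest. The part of erythroid RNA in these ranks was not tested. The genes whose deviations were most like the mean of the 10 were Irf1 (r = 0.87), Igf1 (0.84), Irf4 (0.83), Klrc1 (0.81), Hic1 (0.78) and Inpp5f (0.76), over 16 libraries. They were picked as the highest among 10696 tested genes. How high an r chance alone gives in such a ranking was not tested, so nothing is read from which genes they are. Irf1 and Irf4 encode interferon regulatory factors, and the mean levels of Irf1 were 288, 460, 774 and 1322 CPM in WT and Nlrp3-/- M-MDSCs and WT and Nlrp3-/- G-MDSCs.

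**Figure D4:**
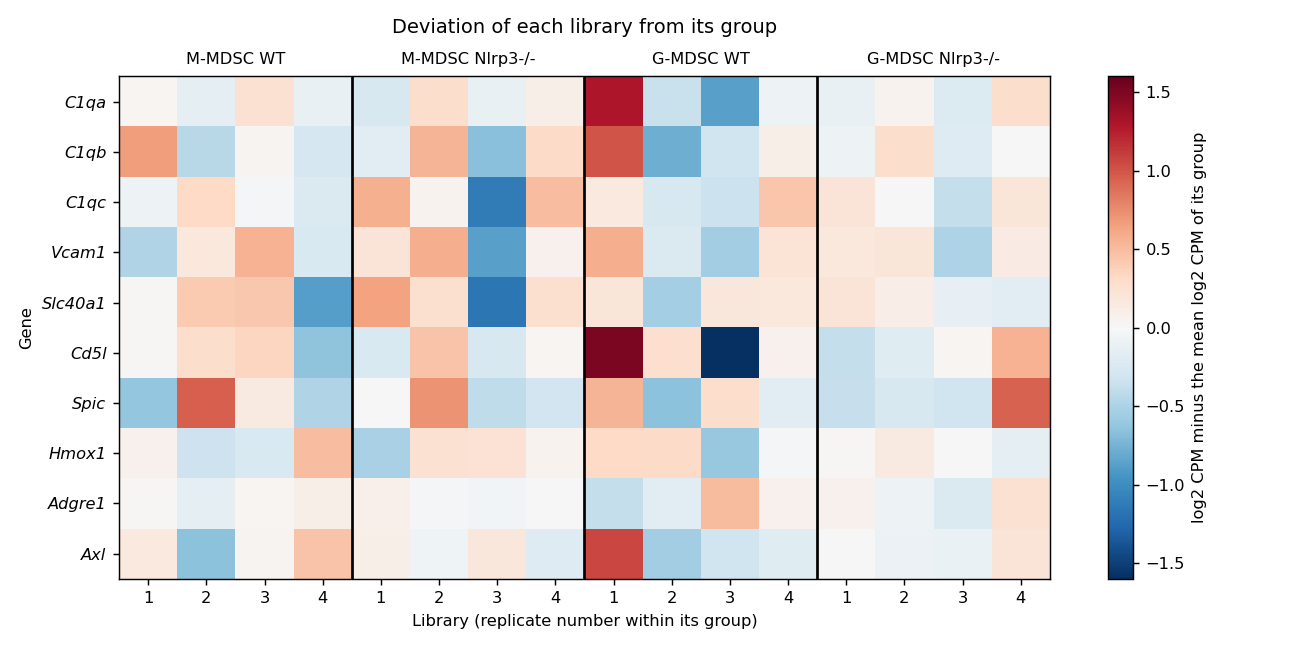
Deviation of each library's log2 CPM from the mean log2 CPM of its own group, for the 10 genes (rows) and 16 libraries (columns, by replicate number within group; red is above and blue below the group mean). WT G-MDSC replicate 1 is above its group for 9 genes and Nlrp3-/- M-MDSC replicate 3 is below for 8.

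Other genes of the same pathways were taken as lists of neighbouring function, apart from the 10. Of 26 further red pulp and tissue macrophage genes, 18 could be tested in M-MDSCs, 3 rose in Nlrp3-/- cells and none fell, with a median log2 fold change of 0.57 (all genes 0.07). No gene of the list was lower at an unadjusted p under 0.05 either, nor by DESeq2. Fcna, a ficolin of macrophages, rose from 7.34 ± 2.85 to 26 ± 9.02 CPM (SD, n = 4; log2 fold change 1.83, SE 0.32, edgeR adjusted p = 0.00635). Marco, a scavenger receptor of marginal zone macrophages, rose from 0.373 ± 0.456 to 2.53 ± 0.650 CPM (edgeR adjusted p = 0.0376), at or near 3 counts in WT. Clec4n rose from 21.8 ± 8.30 to 43.8 ± 6.26 CPM (edgeR adjusted p = 0.0264). In G-MDSCs 16 genes could be tested, all 16 had positive estimates, 5 rose and the median was 0.71 (all genes 0.03). Itgad, the integrin αD chain of red pulp macrophages, rose from 2.94 ± 2.1 to 17.1 ± 8.48 CPM (log2 fold change 2.40, SE 0.52, edgeR adjusted p = 0.00614). Cd163, the hemoglobin scavenger receptor, rose from 2.72 ± 2.00 to 13.5 ± 5.31 CPM (2.26, SE 0.55, edgeR adjusted p = 0.0116). Fcna rose by a log2 fold change of 1.26 (edgeR adjusted p = 0.0145), Apoe by 0.82 (edgeR adjusted p = 0.0369) and Csf1r by 0.64 (edgeR adjusted p = 0.0388). In M-MDSCs Itgad (1.76, edgeR adjusted p = 0.128) and Cd163 (1.15, edgeR adjusted p = 0.0572) did not pass. Some genes of the list were near the floor: Siglec1 had 0 counts in all 8 G-MDSC libraries, Folr2 too, and Vsig4 was at 0 in all M-MDSC libraries. Siglec1 was at 1.5 ± 1.08 CPM in WT and 1.99 ± 1.49 CPM in Nlrp3-/- M-MDSCs.

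Iron and heme genes outside the 10 gave calls in both directions. Of 20 tested in M-MDSCs, 1 rose and 1 fell. Slc48a1, a heme transporter of the phagolysosome, rose by a log2 fold change of 0.78 (SE 0.20, edgeR adjusted p = 0.0287). Nfe2l2, the transcription factor NRF2, fell from 193 ± 42.3 to 104 ± 14.1 CPM (-0.85, SE 0.19, edgeR adjusted p = 0.0177). In G-MDSCs 1 of 19 rose and 2 fell. Ftl1, the ferritin light chain, rose from 634 ± 329 to 1747 ± 221 CPM (1.38, SE 0.31, edgeR adjusted p = 0.00815). Nfe2l2 fell from 516 ± 14.2 to 277 ± 13 CPM (-0.98, SE 0.13, edgeR adjusted p = 0.00028). Bach1, a repressor of Hmox1 that heme releases, fell by 0.88 (SE 0.18, edgeR adjusted p = 0.00491). Ftl1 has processed copies that can share reads, and its value is uncertain for that reason.

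Among 21 transcription factors of macrophage fate, 1 rose and 2 fell in M-MDSCs. Nr1h3, which encodes LXRα, a factor that splenic macrophages use, rose from 5.26 ± 1.37 to 14.4 ± 4.01 CPM (1.48, SE 0.30, edgeR adjusted p = 0.0107). Klf4 fell from 573 ± 117 to 314 ± 26.2 CPM (-0.85, edgeR adjusted p = 0.0105). In G-MDSCs Zeb2 fell by 0.84 (SE 0.17, edgeR adjusted p = 0.00427) and none of 18 rose, although 5 were higher at an unadjusted p under 0.05 and DESeq2 called none higher.

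Partners of C1q and VCAM1 gave few calls upward. Of 17 complement and C1q partner genes tested in M-MDSCs none rose (2 at an unadjusted p under 0.05, 1 by DESeq2), and Itgam, the CD11b chain of complement receptor 3 and the antigen of the sort gate, fell from 192 ± 41.1 to 114 ± 16 CPM (edgeR adjusted p = 0.0329). In G-MDSCs Itgam fell from 545 ± 47.4 to 295 ± 33.1 CPM (-0.97, SE 0.15, edgeR adjusted p = 0.000632) and Cd55 fell by 1.28 (edgeR adjusted p = 0.0361). Cfp, properdin, rose there by a log2 fold change of 0.59 (edgeR adjusted p = 0.0493). C1s1, the protease partner of C1q, had 0 counts in all 16 libraries. Of 23 genes for clearance of apoptotic cells, Mfge8, a bridge between phagocyte and dying cell, rose in M-MDSCs (0.93, SE 0.25, edgeR adjusted p = 0.0376) and none fell. In G-MDSCs none of 21 passed, with 5 higher and 3 lower at an unadjusted p under 0.05 and 3 called higher by DESeq2. Of 13 VCAM1 and integrin genes none passed in M-MDSCs (4 higher and 2 lower at an unadjusted p under 0.05, 1 higher by DESeq2). In G-MDSCs Itga4, a chain of the VLA-4 receptor for VCAM1, fell from 489 ± 57.6 to 282 ± 29.0 CPM (-0.88, SE 0.15, edgeR adjusted p = 0.00143), Itga6 fell by 0.78 (edgeR adjusted p = 0.0286) and Itga9 rose from 1.79 ± 1.32 to 7.74 ± 1.98 CPM (edgeR adjusted p = 0.0348).

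In all, 6 of 109 tested list genes rose and 4 fell in M-MDSCs, against 3.51% and 7.10% of all genes, and 8 of 99 rose and 7 fell in G-MDSCs, against 4.70% and 11.7%. Of the calls on genes named from these lists, 8 were lost in most of the fits that left out 1 of the 8 libraries. The call on Csf1r in G-MDSCs is not covered here, neither by these fits nor by the correction below. Marco (2.14 to 3.31), Slc48a1 (0.62 to 0.91) and Mfge8 (0.65 to 1.07) were called in M-MDSCs only without WT replicate 1 or Nlrp3-/- replicate 1, and Itgam there (-0.85 to -0.61) only without WT replicate 3 or Nlrp3-/- replicate 1. In G-MDSCs Apoe (0.59 to 1.02) was called only without WT replicate 1 or 2, Cfp (0.44 to 0.77) only without WT replicate 4, Itga6 (-0.89 to -0.71) only without WT replicate 1 or Nlrp3-/- replicate 4, and Itga9 (1.63 to 2.40) only without WT replicate 2 or 4. Clec4n was not called without WT replicate 3 or 4 or Nlrp3-/- replicate 4 (1.00, 1.01 and 0.89), and Nfe2l2 in M-MDSCs not without WT replicate 2 or 4 or Nlrp3-/- replicate 4 (-0.80, -0.86 and -0.82). Cd55 in G-MDSCs was not called without WT replicate 2 or 4 or Nlrp3-/- replicate 1 or 2. The correction for GC content and length ended the calls in M-MDSCs on Marco (2.32), Slc48a1 (0.52), Itgam (-0.60) and Mfge8 (0.65). In G-MDSCs it ended those on Fcna (0.89), Apoe (0.41), Ftl1 (0.98), Bach1 (-0.53), Zeb2 (-0.17), Cfp (0.24), Cd55 (-0.99), Itga4 (-0.19) and Itga6 (-0.62).

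Markers of other cells moved with genotype in places. The erythroid list summed to 42.3 to 308 CPM in WT and 43.0 to 171 CPM in Nlrp3-/- M-MDSCs, and to 74.4 to 707 and 85.7 to 416 CPM in G-MDSCs. All of its 10 and 11 tested genes had negative estimates, and Car2 passed in M-MDSCs. The dendritic cell list summed to 746 to 1055 CPM in WT and 1048 to 1634 CPM in Nlrp3-/- M-MDSCs. In G-MDSCs it summed to 608 to 931 and 1126 to 1784 CPM. In each subset 2 of its genes were called higher, H2-Aa in both. Positive estimates were found for 7 of 9 tested genes in M-MDSCs and 3 of 6 in G-MDSCs (median log2 fold change 0.09). The sums rest largely on the class II genes H2-Aa and H2-Ab1, at means of 259 and 308 CPM in WT and 591 and 540 CPM in Nlrp3-/- G-MDSCs. Of the proliferation list 2 of 14 tested genes were called lower in M-MDSCs and 2 of 13 in G-MDSCs, in both subsets Mki67 and Top2a, which fell by 2.08 and 1.63 on the log2 scale in M-MDSCs and by 2.74 and 1.99 in G-MDSCs. Among 12 RNA quality, immediate early and heat shock genes, 5 were lower and 1 higher in M-MDSCs and 2 lower and 1 higher in G-MDSCs, and Malat1, a nuclear RNA, fell by 1.80 and 2.11. T and NK cell genes gave 1 higher call in M-MDSCs and 2 higher (Gzma in both subsets) and 1 lower, Il7r at -1.17, in G-MDSCs. In M-MDSCs Mmp9 and Retnlg of the neutrophil list were also called higher, although only 3 of its 12 tested genes had positive estimates. Its median log2 fold change there was -0.40 (all genes 0.07). In G-MDSCs Cxcr2 of that list was called lower. Of the monocyte list Klf4 was called lower in M-MDSCs, and in G-MDSCs Csf1r higher and Ly86 lower. The B cell gene Ms4a1 was called lower in both subsets, and Cd22 higher in G-MDSCs. Eno3 of the Ly6C-low monocyte list and Ccr3 of the eosinophil, basophil and mast cell list were called higher in M-MDSCs and Itga2b of the platelet list in G-MDSCs. Some lists had 0 calls by edgeR, several with few genes to test. They are given with their genes at an unadjusted p under 0.05. In both subsets they were the endothelial and stromal list (3 of 15 genes tested, 1 higher in each) and the melanoma list (1 of 7 tested, 0 genes). In M-MDSCs the platelet list had none (6 of 10 tested, 1 gene higher). In G-MDSCs they were the Ly6C-low monocyte list (8 of 11 tested, 1 gene lower) and the eosinophil list (3 of 13 tested, 2 genes higher). The endothelial and stromal list still summed to 146 to 222 CPM in WT and 224 to 288 CPM in Nlrp3-/- G-MDSCs. The eosinophil list summed to 32.8 to 59.9 and 61.5 to 71.3 CPM there. DESeq2 called 1 endothelial and stromal gene in M-MDSCs and 1 eosinophil, basophil or mast cell gene in G-MDSCs, and no gene of the other lists just named. The part of these cells in the levels of the 10 genes was not tested.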

How the data were processed

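mRNA of 16 libraries was measured with QuantSeq 3′ sequencing. Per the labels and the study's methods, the authors aligned reads to mm10 with HISAT2 2.1.0, tallied them on genes with HTSeq in stranded mode, and deposited unnormalized counts for 24421 symbols. The day of the sort and the number of amplification cycles of each library are not given in the sources used here. The tests here used edgeR 4.0.16 under R 4.3.3 (filterByExpr, TMM, quasi-likelihood test within the 8 libraries of a subset or genotype). Genes with a Benjamini-Hochberg adjusted p under 0.05 over all tested genes and a fold change above 1.5 were called, the study's thresholds. CPM used TMM factors over all 16 libraries, and deviations used log2 CPM with a prior count of 2. Locations came from GENCODE (24027 symbols matched, 651 by an older symbol), promoters from RefSeq (GRCm38.p6). Figures used matplotlib 3.10.9. The fit was tested on simulated data.

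The 10 genes and all gene lists were chosen with earlier results of these data known. The text names the 10, Nlrp3, the genes flanking the C1q cluster, the called genes of each pathway list with the smallest p (up to 4 in each direction), the 6 genes most like the 10, and, chosen after their values were seen, Csf1r in G-MDSCs, the 3 genes called in the interaction and the called marker genes. Pathway and marker lists were otherwise given by counts of called genes, with summed levels for only some of the marker lists. Some genes that this rule names are not reported here. Same-numbered libraries of a genotype come from 1 mouse, so the mouse is a true block between subsets (mean correlation of their deviations 0.27 in WT and 0.19 in Nlrp3-/- mice). Alternatives were other scalings, no filter, the replicate block, a spline correction for GC content and transcript length (a value for 99.4% of tested genes), edgeR's exact test, DESeq2 1.42.0, a fit of all 16 libraries, no fold minimum, and leaving out each library. Intervals of counting error and floors of 3 counts cover counting error only.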

Additional observations from a re-analysis of the deposited data

Results flagged for a closer look

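In 4 of the 44 groups of 4 libraries tested (11 genes in 4 groups), 1 library stood far from the other 3 by Dixon's gap test, which flags about 1 group in 20 by chance. Slc40a1 was at 299 CPM in WT G-MDSC replicate 2, with the next at 492 CPM. Axl was at 27.0 CPM in WT G-MDSC replicate 1, with the next at 11.3 CPM. Vcam1 was at 105 CPM in Nlrp3-/- G-MDSC replicate 3, with the next at 162 CPM. Spic was at 38.6 CPM in Nlrp3-/- G-MDSC replicate 4, with the next at 16.8 CPM. All 4 lie in G-MDSCs, and each falls in a different gene.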

How the results depend on the processing

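All 10 genes kept positive genotype estimates in both subsets under every alternative run. Of the 10, 7 were called higher in M-MDSCs (6 to 7 when 1 library was left out) and 2 with the replicate block and the correction for GC content and length together. In G-MDSCs 7 were called (6 to 8 left out), and the block and correction together ended the calls on C1qb and Cd5l. Same-numbered WT and Nlrp3-/- libraries are different mice (mean correlation of deviations -0.17 and -0.18), and the replicate block there pairs only numbers. Of the list genes in M-MDSCs, 6 rose (2 to 13 left out), 14 with library totals only, 11 with the exact test, 2 with the replicate block and 0 with block and correction. Those that fell numbered 4 (1 to 9 left out), 7 by DESeq2 and 1 with block and correction. In G-MDSCs 8 rose (4 to 12 left out), 14 with library totals, 13 without the filter, 13 by DESeq2, 17 with all 16 libraries, 5 with the replicate block and 1 with block and correction. There 7 fell (5 to 10 left out), 3 with the correction and 2 with block and correction. The 1 flanking call in G-MDSCs (0 to 1 left out) became 0 with the block, alone or with the correction, and the 1 in M-MDSCs stayed 1.

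Between subsets of WT mice, 5 of the 10 were called higher (5 to 6 left out), 2 with library totals. The 1 called lower (0 to 2 left out) became 0 with DESeq2's size factors, the exact test and DESeq2, 2 with the replicate block of mice and 3 with library totals. In Nlrp3-/- mice 6 were called higher, also with each library left out, and 1 with library totals. None was called lower (0 to 1 left out), 1 without the filter or the fold minimum and 2 with library totals. List genes called higher were 32 (31 to 34) and 35 (31 to 37), 19 and 14 with library totals, and lower 40 (40 to 43) and 41 (38 to 44). The interaction called 0 of 113 list genes (9 at an unadjusted p under 0.05) and 1 with the mouse as a block. The causes were not tested, beyond the fewer degrees of freedom that a block leaves. The C1q chains, Cd5l and Slc40a1 in WT M-MDSCs rest on 9 to 74 counts per library, which limits their precision. With library totals the median of all genes shifted by 0.10 in M-MDSCs and 0.12 in G-MDSCs between genotypes.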
